A study of Mus musculus with 4 samples.

Results

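The proteasome genes are the rows of the deposited table whose symbol begins with Psm, then a letter from a to g and a digit, together with Pomp and without the immunoproteasome genes Psmb8, Psmb9 and Psmb10. They number 48 of 24444 genes in the table. The 4 poly(A) RNA libraries come from oesophageal cells in culture, of the strain C57BL/6J. The Nrf2-HET group (HET, 2 libraries) bears a substitution in the transcription factor NRF2: its labels name an Nfe2l2-E79Q cassette and CRISPR/Cas9 microinjection, and Nfe2l2 encodes NRF2. The series title calls the mouse conditional and the mutation tumour-derived. The Nrf2-WT group (WT, 2 libraries) has no cassette and no treatment by its labels. The column names of all 4 libraries carry the word SV40, which the labels do not explain. Whether the allele was switched on by a recombinase, how many animals gave the cells and how old they were was not given in the sources used here. Values are variance-stabilised values on a log2-like scale, and a difference is HET minus WT over 2 replicate pairs.

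The 26S proteasome degrades proteins tagged with ubiquitin. Its 20S core is a barrel of outer alpha rings and inner beta rings, and the beta rings hold the proteolytic sites. The 19S particle caps the barrel: its base of ATPases unfolds the substrate and opens the gate, and its lid removes ubiquitin. When the proteasome is inhibited, mammalian cells raise all these genes together through NRF1, a relative of NRF2 encoded by Nfe2l1. NRF2 itself has been linked to induction of core subunit genes in mouse cells given electrophiles. The comparison asks whether these genes differ in cells with a tumour-derived NRF2 substitution.

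The labelled cell type was checked first. All 10 keratinocyte markers examined passed the filter on low values, with Krt5 at 15.79 and 15.84 in HET and 15.85 and 15.80 in WT. Of these 10, 4 were called higher and 3 lower in HET, with Itga6 at 0.73 and Krt13 at 0.49 against Krt15 at -0.58 and Sox2 at -0.45. Ptprc and Cd3e (immune cells) and Lum and Dpt (fibroblasts) lay at the floor in all 4 libraries. Markers of other cells differed with genotype in both directions. Summed normalised counts were 2193 and 2209 in HET against 3040 and 3039 in WT for 10 fibroblast genes, 335 and 312 against 1002 and 1048 for 7 muscle genes, 435 and 468 against 222 and 203 for 8 immune genes, and 16.6 and 12.1 against 20.8 and 30.2 for 5 endothelial genes. A few genes carried these sums: Fbln2 (-0.51) and Col1a1 (-1.29) for fibroblasts, Acta2 (-1.23) and Tagln (-0.61) for muscle, and Cd68 (0.67) for immune cells. Fbln1 was called higher (0.26), and Dcn, Des and Myh11, all under the filter, lay higher in both HET libraries. The part of other cells in the results below was not tested. In bulk RNA, fewer cells of a type and less RNA per cell cannot be told apart. As a check of the labels, Nqo1, a quinone reductase and classical NRF2 target, lay at 10.88 and 10.87 in HET and at 8.64 and 8.65 in WT. Nfe2l2 itself was at 11.17 and 11.27 in HET and 11.38 and 11.27 in WT, and was not called (limma adjusted p = 0.154). After quantile normalization limma called it lower (adjusted p = 0.0486).

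Many structural subunits of the 26S proteasome were modestly lower in HET cells. Of the 48 genes, 45 passed the filter on low values, and 17 of these were called, 16 lower and 1 higher (limma with a replicate block, adjusted p under 0.05 over 10857 genes). Over all genes tested, 40.4% were called, 18.9% lower and 21.5% higher. The members called lower are thus a larger share of their list than the background, and the member called higher a smaller one. The groups did not overlap in 36 of the 45, with HET lower in 31 and higher in 5. Over all genes tested, the groups did not overlap in 79.2%, with HET wholly below WT in 38.1% and wholly above it in 41.1%. The deposited values had been centred on the replicate number, so groups that do not overlap mean only that both pairs have the same sign. The median difference was -0.10 for the 45 members against 0.01 for all genes tested. On the scale of normalised counts the median difference was -7.81%, and no member differed by as much as 1 unit. Every call rests on a spread pooled over genes, because an exact test of 2 pairs cannot give a two-sided p under 0.5. All calls of the table, these included, are lost when genes at the floor are kept in the fit (0 genes called). Of the 17 called members, 11 held their call under each of the other 12 alternatives. These alternatives are not independent of each other. Leaving out either library of a replicate pair gives the same difference, because of the centring, and those fits have no replicate block. Like the fit of all 4 libraries without the block, they call more genes than the main fit. A call held in such fits therefore adds little.

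**Figure D1:**
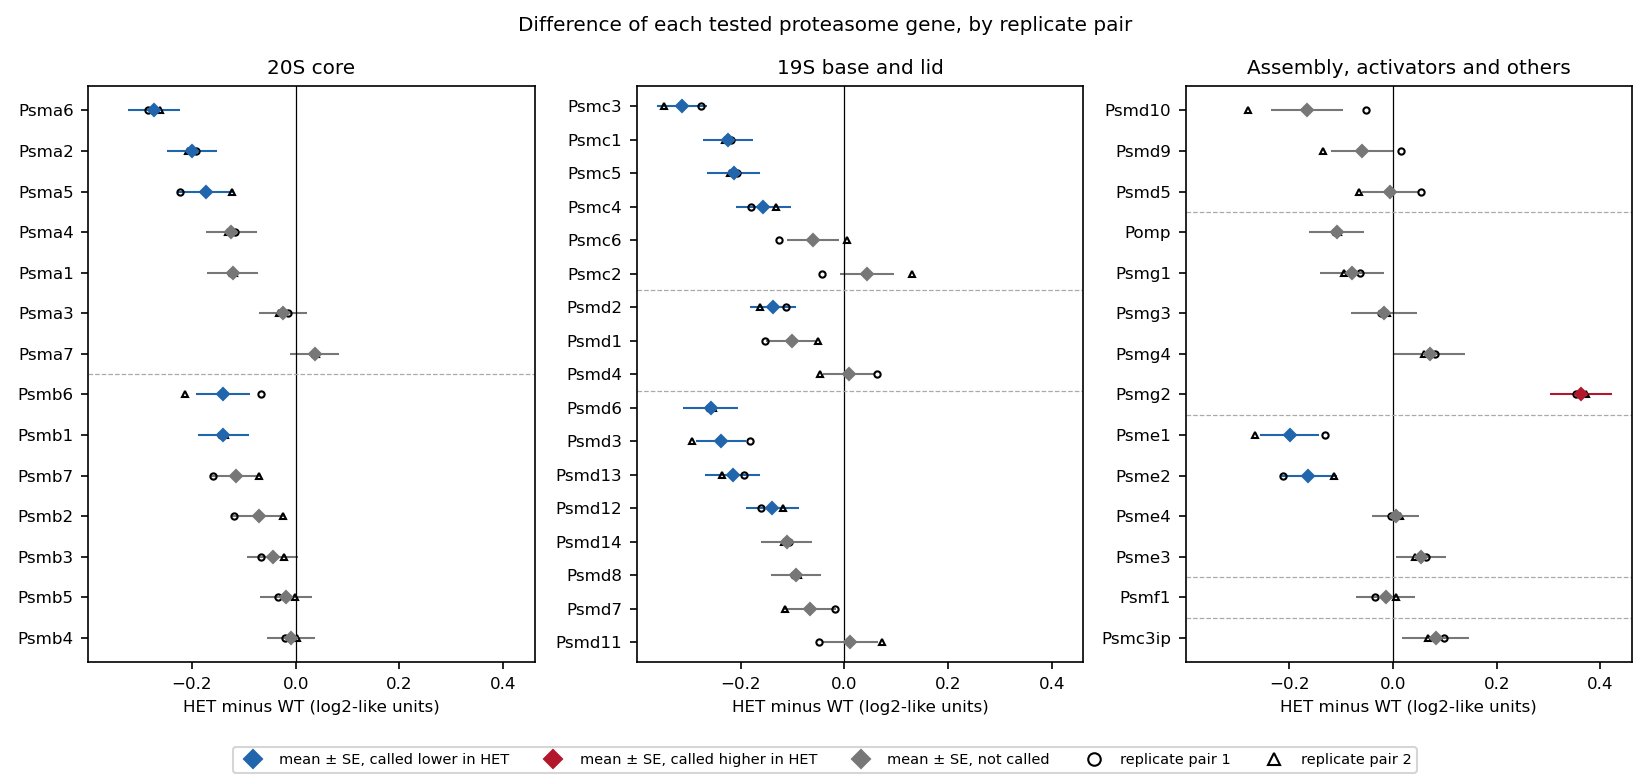
Difference between HET and WT (horizontal axis, log2-like units) for the 45 tested proteasome genes, ordered within subunit groups that dashed lines separate. Diamonds show the mean with its SE, circles and triangles the 2 replicate pairs. Of the 16 blue marks, called lower in HET, 14 lie in the 20S and 19S panels, where no gene was called higher, and Psmg2 in red stands alone at 0.36.

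Subunits of the assembled particle made up 14 of the 16 genes called lower. Of 31 tested 26S subunits that the symbol pattern takes in, limma called 14 lower and 0 higher. None of these 31 was higher at an unadjusted p under 0.05. The 31 leave out Adrm1 (0.13) and Sem1 (-0.08), 26S subunits with other symbols, neither of them called. Of the 31, the fit without the replicate block called 18 lower and 1, Psma7, higher, and it also called Adrm1 higher. Over all genes, that fit called 26.5% lower and 28.8% higher. That fit reads the centred values as if replicate differences had never been removed, so its p-values are too small, and calls it adds are given only as its output. Among 3039 tested genes within the range of levels of these 31, 20.3% were called lower and 28.9% higher. The 14 called subunits fell by between 0.14 and 0.31. The 17 others ranged from -0.12 to 0.04.

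The alpha ring controls entry to the barrel. Of its 7 tested genes 3 were called lower, Psma6, Psma2 and Psma5, against 18.9% of all genes tested. Psma6 was at 10.71 and 10.72 in HET, against 10.99 and 10.98 in WT, a difference of -0.27 ± 0.05 (limma adjusted p = 0.00046). Both HET libraries lay below both WT libraries, and normalised counts fell by 19.5%. Psma2 had values of 11.07 and 11.06 in HET and 11.26 and 11.27 in WT (-0.20 ± 0.05, adjusted p = 0.0040). Psma5 had 10.45 and 10.50 in HET and 10.67 and 10.62 in WT (-0.17 ± 0.05, adjusted p = 0.0173). In Psma1 and Psma4 the groups were also apart, at -0.12 each, but these did not pass (adjusted p = 0.0625 and 0.0561). Both passed after median centring and after quantile normalization. Psma3 (-0.02) and Psma7 (0.04) differed least. Psma8, a testis form of an alpha subunit, was at the floor of 6.98 in all 4 libraries and was not tested.

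The beta ring had 2 of 7 tested genes called lower, against 18.9% of all genes tested. Its median was -0.07, where that of the alpha ring was -0.12. The difference between the rings was not tested. Of its catalytic subunits, Psmb6, which cuts after acidic residues, was at 10.98 and 10.90 in HET and at 11.04 and 11.12 in WT (-0.14 ± 0.05, adjusted p = 0.0433). Its HET values lay below its WT values, but the pairs were far apart, and the call was lost without the replicate block (adjusted p = 0.0647) or without replicate 2 of HET (0.0698) or of WT (0.0760). Psmb7, with trypsin-like activity, was at 11.42 and 11.46 in HET and 11.58 and 11.53 in WT (-0.12 ± 0.05, adjusted p = 0.0688). It was called lower after median centring (0.0313) and quantile normalization (0.0187). Psmb5, with chymotrypsin-like activity and the main target of proteasome inhibitor drugs, was at 10.85 and 10.87 in HET and 10.89 and 10.87 in WT. Its difference of -0.02 ± 0.05 was not called (adjusted p = 0.804). The non-catalytic Psmb1 was at 10.83 and 10.84 in HET and 10.98 and 10.97 in WT (-0.14 ± 0.05, adjusted p = 0.0351). Psmb2, Psmb3 and Psmb4, likewise non-catalytic, lay between -0.07 and -0.01 and did not pass. Psmb11, the thymus form, had 7.01 and 7.08 in HET and 7.01 and 6.94 in WT, too near the floor to test.

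The base of the 19S particle held the largest fall. Of its 6 ATPase genes 4 were called lower, against 18.9% of all genes tested. The median of the 6, -0.18, was the lowest of the subunit groups. Psmc3, an ATPase whose tail docks into the alpha ring, was at 11.25 and 11.21 in HET, against 11.52 and 11.56 in WT. The difference was -0.31 ± 0.05 (limma adjusted p = 9.92e-05), and normalised counts fell by 21.2%. Both pairs showed it, at -0.28 and -0.35. Psmc1 had 11.24 in both HET libraries and 11.46 and 11.47 in WT (-0.22 ± 0.05, adjusted p = 0.00152). Psmc5 had 10.57 in both HET libraries and 10.78 and 10.79 in WT (-0.21 ± 0.05, adjusted p = 0.00365). In these 3 genes both pairs were lower in HET. Psmc4 had 10.32 and 10.34 in HET and 10.50 and 10.47 in WT (-0.16 ± 0.05, adjusted p = 0.0282). The other ATPases of the same ring did not pass. Psmc6 had 11.24 and 11.30 in HET and 11.36 and 11.30 in WT, and Psmc2 had 11.39 and 11.48 in HET and 11.44 and 11.35 in WT. In both the groups overlapped. Exons of Psmc3 share 97 bases with Slc39a13 on the other strand in GENCODE M21, and the strand setting of the counting was not given in the sources used here.

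Of the base subunits without ATPase activity, the large scaffold Psmd2 fell. It was at 12.67 and 12.65 in HET and at 12.78 and 12.81 in WT (-0.14 ± 0.04, adjusted p = 0.0222). Its fellow scaffold Psmd1 was at -0.10 ± 0.05 (adjusted p = 0.107), lower in both pairs, and was called after median centring (0.0498) and quantile normalization (0.0297). Psmd4, a ubiquitin receptor, was at 0.01 ± 0.05, and its groups overlapped.

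**Figure D2:**
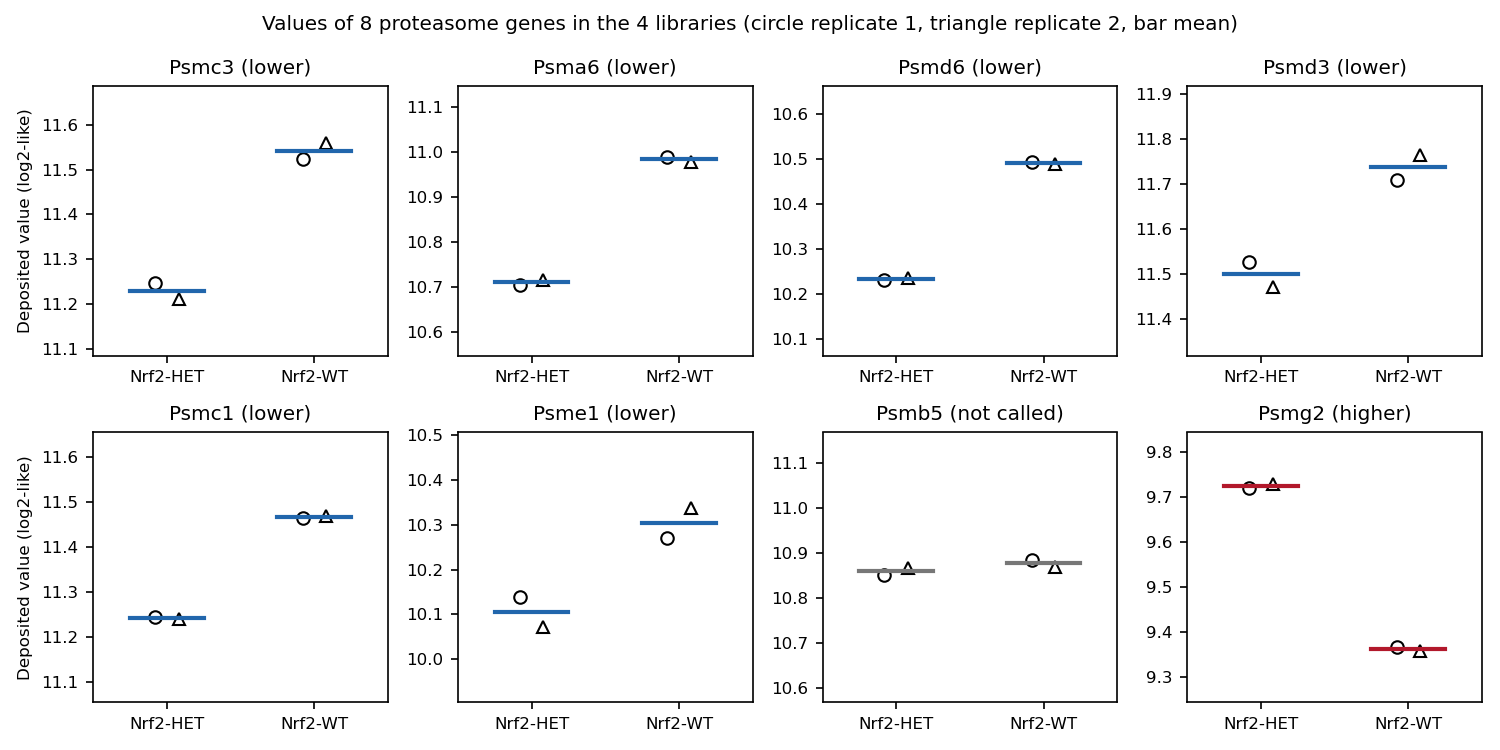
Deposited value (vertical axis, log2-like units, each panel spanning 0.6 units) in the HET and WT libraries for 8 genes. Circles are replicate 1, triangles replicate 2 and bars the group mean. Psmc3, Psma6, Psmd6, Psmd3, Psmc1 and Psme1 are lower in both HET libraries, Psmb5 is nearly level, and Psmg2 is higher in both.

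The lid had 4 of 8 genes called lower, against 18.9% of all genes tested. All 4 are scaffold subunits of the PCI type, which fan out around the deubiquitinase, but so are Psmd8 and Psmd11, which were not called. Psmd6 was at 10.23 in both HET libraries and 10.49 in both WT libraries (-0.26 ± 0.05, adjusted p = 0.0012), and its normalised counts fell by 19.4%. Psmd3 was at 11.53 and 11.47 in HET and 11.71 and 11.76 in WT (-0.24 ± 0.05, adjusted p = 0.00115). Psmd13 was at 10.34 and 10.32 in HET and 10.54 and 10.56 in WT (-0.21 ± 0.05, adjusted p = 0.00427). Psmd12 was at 10.60 and 10.62 in HET and 10.76 and 10.74 in WT (-0.14 ± 0.05, adjusted p = 0.0407). In these 4 genes the HET libraries lay below the WT libraries. Psmd14, the deubiquitinase that strips the ubiquitin chain, was at 10.99 and 10.98 in HET and at 11.10 in both WT libraries. Its difference of -0.11 ± 0.05 was not called (adjusted p = 0.0823), though it was after median centring (0.0405) and quantile normalization (0.0318). Psmd8 and Psmd7 had differences of -0.09 and -0.07 and Psmd11 of 0.01, and none of these passed. Exons of Psmd13 share 152 bases with Sirt3 on the other strand in GENCODE M21, and other members share exonic bases too. Psmb7 shares 405 with Nek6 on the other strand. On the same strand, Psmd1 shares 301 with Gm21972 and Psmb5 109 with Mir686. Among the other called genes, Psma5 shares 60, Psmd3 17 and Psme1 7, all on the other strand.

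**Figure D3:**
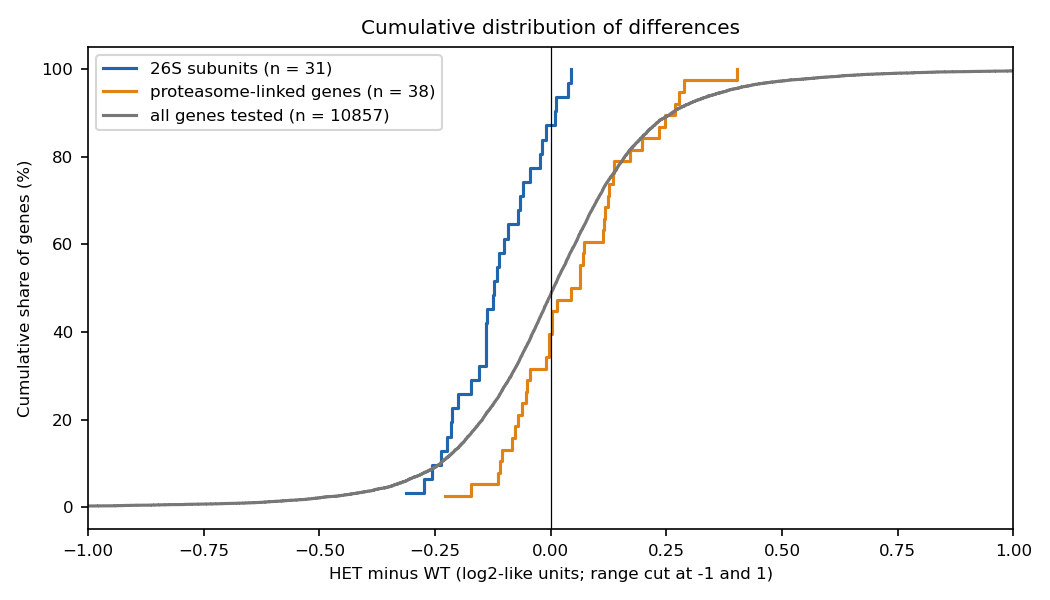
Cumulative share of genes (vertical axis, %) against the difference HET minus WT (horizontal axis, log2-like units) for the 31 tested 26S subunits, 38 proteasome-linked genes outside the subunit list, and all 10857 genes tested. The curve of the subunits lies left of that of all genes around its median of -0.12, and it ends at 0.04, while the tails of all genes run further both ways.

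Of the 8 assembly factors, limma called 1 higher and 0 lower, and 6 lay below 0. Over all genes tested, 21.5% were called higher and 18.9% lower. At an unadjusted p under 0.05 the counts of assembly factors were 1 higher, Psmg2, and 1 lower, Psmd10. Psmg2, which pairs with Psmg1 to start the alpha ring, was the only member called higher. It was at 9.72 and 9.73 in HET, against 9.37 and 9.36 in WT, a difference of 0.36 ± 0.06 (adjusted p = 0.000172), with normalised counts 42.4% higher. Both HET libraries lay well above both WT libraries. Its partner Psmg1 was at 9.29 and 9.27 in HET and 9.35 and 9.37 in WT (-0.08 ± 0.06, adjusted p = 0.330). The second chaperone pair, Psmg3 and Psmg4, was at -0.02 and 0.07 and did not pass. Pomp, which builds the beta ring onto the alpha ring, was at 10.30 in both HET libraries and 10.41 in both WT libraries. Its difference of -0.11 ± 0.05 was not called (adjusted p = 0.116) with the block but was without it (0.00680). The chaperones of the 19S base, Psmd5, Psmd9 and Psmd10, had differences of -0.01, -0.06 and -0.17. None passed, Psmd10 having the widest gap between its pairs (adjusted p = 0.0695). With a stricter filter, at least 2 above the lowest value in all 4 libraries, limma called Psmd10 lower (adjusted p = 0.0468).

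Of the 4 activator genes 2 were called lower. Psme1 and Psme2 form the PA28 alpha-beta cap, which opens the core without ubiquitin or ATP and is induced by interferon gamma. Psme1 was at 10.14 and 10.07 in HET and 10.27 and 10.34 in WT (-0.20 ± 0.06, adjusted p = 0.0111). Psme2 was at 10.16 and 10.20 in HET and 10.37 and 10.32 in WT (-0.16 ± 0.06, adjusted p = 0.0274). Both fell, and their HET values lay below their WT values. Psme2 has a close relative in the table, Psme2b (7.74 and 7.76 in HET, 7.72 and 7.70 in WT, under the filter), so reads could be split between them. The nuclear cap gene Psme3 was at 0.05 ± 0.05, Psme4, the gene of the single-chain cap PA200, at 0.01 ± 0.05, and Psmf1, the gene of the inhibitor PI31, at -0.01 ± 0.06. None of these passed. Over assembly factors, activators and the inhibitor together, 2 of 13 were called lower and 1 higher, with a median of -0.02. Over all genes tested 18.9% were called lower and 21.5% higher, so neither count exceeds the background. Without the replicate block 4 of the 13 were called lower and 3 higher, where that fit called 26.5% and 28.8% of all genes. Psmc3ip, which the symbol pattern takes in, acts in meiotic recombination and is no proteasome subunit. It was at 9.07 and 9.06 in HET and 8.98 and 8.99 in WT and was not called (adjusted p = 0.329).

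Promoter sequences of the members were searched for known motifs, and none was found in every window. RefSeq promoter windows (GRCm38.p6, 250 bases before to 50 after each gene start) were at hand for 40 of the 48 genes, and 41 windows belong to tested members. The 8 genes without a window include Psmc3, Psmd3 and Psmb1, called lower, and Psmg2, the only member called higher. The antioxidant response element, the site that NRF2 and NRF1 bind with small MAF proteins, was searched by its core TGACNNNGC on both strands. It was found in 14.6% of the windows of tested members, 14.4% of those of all genes tested and 12.4% of all windows. A looser form, TGANNNNGC, which includes every match of the first, was found in 56.1%, 43.0% and 41.3%. An ETS factor site, CCGGAAG, was found in 41.5% of the windows of tested members, against 18.5% of those of genes tested and 8.86% of all windows. The CCAAT box was found in 31.7%, 37.9% and 37.4%. Of the 13 genes called lower that have a window, 2 hold the antioxidant core and 6 the ETS site. By windows these are 13.3% and 40.0%, near the 14.6% and 41.5% of all tested members. The genes called lower and the genes not called both include carriers of each. A match describes letters in a window and shows no binding.

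The following 250 bases before the gene start are read on the gene's own strand. For the antioxidant core they set called and uncalled carriers side by side. For the ETS site only Psma6, called lower, is shown, and carriers that were not called are left out. Capitals mark the antioxidant core in the first 3 and the ETS site in the last. Psmd12 also holds an ETS match, at position -17, left in lower case. Psmb6 (chr11:70525107-70525356, plus strand) and Psmd12 (chr11:107479278-107479527, plus strand) were called lower. Psmb5 (chr14:54617996-54618245, minus strand) was not called. Psma6 (chr12:55398575-55398824, plus strand) had the largest fall of the core genes.
Psmb6: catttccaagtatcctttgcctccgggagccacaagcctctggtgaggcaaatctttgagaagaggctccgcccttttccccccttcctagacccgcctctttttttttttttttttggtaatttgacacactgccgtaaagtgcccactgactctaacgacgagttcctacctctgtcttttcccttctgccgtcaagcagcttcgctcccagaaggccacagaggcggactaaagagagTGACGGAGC
Psmd12: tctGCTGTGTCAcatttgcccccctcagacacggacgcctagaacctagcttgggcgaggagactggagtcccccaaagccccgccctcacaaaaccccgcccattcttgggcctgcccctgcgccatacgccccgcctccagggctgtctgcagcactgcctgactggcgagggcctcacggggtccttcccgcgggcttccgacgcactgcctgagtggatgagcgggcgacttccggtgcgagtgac
Psmb5: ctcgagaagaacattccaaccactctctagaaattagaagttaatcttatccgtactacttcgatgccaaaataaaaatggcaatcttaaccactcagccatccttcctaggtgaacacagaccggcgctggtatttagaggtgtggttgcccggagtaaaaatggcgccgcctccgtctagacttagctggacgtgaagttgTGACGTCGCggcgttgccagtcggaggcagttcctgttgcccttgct
Psma6: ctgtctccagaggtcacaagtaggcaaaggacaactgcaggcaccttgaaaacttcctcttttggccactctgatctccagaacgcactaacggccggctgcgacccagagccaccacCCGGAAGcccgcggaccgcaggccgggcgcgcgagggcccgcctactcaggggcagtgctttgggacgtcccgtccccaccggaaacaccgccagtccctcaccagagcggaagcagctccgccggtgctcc
Counted from the gene start, the match begins at position -9 in Psmb6 and at position -47 in Psmb5. Psmb5 thus carries the letters close to its start and was not called, while Psmb6 carries them closer still and was called lower in HET. The call of Psmb6 was lost under several alternatives, among them the fit without the replicate block. Whether the differences of Psmb5 and Psmb6 differ from each other was not tested. Any link between these letters and the differences was not tested either.

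Genes that serve the proteasome from outside the subunit list were called higher more often than lower. Of 38 such genes 11 were called higher and 2 lower, with a median of 0.05. The background over all genes tested is 21.5% higher and 18.9% lower. Among the 3039 tested genes within the range of levels of the 26S subunits it is 28.9% and 20.3%. The count called higher is near these shares, and the linked genes spread more widely in level. Among partners bound to the 26S particle, 4 of 11 rose. Fbxo7, an F-box protein that binds PI31, was at 9.65 and 9.68 in HET and 9.28 and 9.25 in WT (0.40 ± 0.06, adjusted p = 7.84e-05). Zfand2a, an arsenite-induced proteasome partner, rose by 0.27 ± 0.06 (adjusted p = 0.00243). AI314180, now Ecpas, the adaptor that ties the 19S to the 20S particle, rose by 0.17 ± 0.05 (adjusted p = 0.0196). Its call was lost in 4 of the 13 alternatives, among them no replicate block (0.0833) and eBayes without trend (0.0562). Zfand5, an activator of the 26S particle, rose by 0.13 ± 0.05 (adjusted p = 0.0387). Its call was lost in 5 of the 13 alternatives, among them median centring (0.0598) and quantile normalization (0.0816). The 26S subunits that the symbol pattern misses, the ubiquitin receptor Adrm1 and the lid protein Sem1, were at 0.13 and -0.08 and did not pass. Adrm1 was called higher without the block (adjusted p = 0.00594).

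Shuttle and unfolding factors were mixed. Over all genes tested, 21.5% were called higher and 18.9% lower, and the counts in these short lists lie near those shares. Of 7 shuttle factors 2 rose: Rad23b, which carries ubiquitinated proteins to the proteasome, at 12.65 and 12.71 in HET and 12.43 and 12.38 in WT (0.28 ± 0.05, adjusted p = 0.000197), and Ddi2, which is also on the NRF1 list. Of 8 genes of the p97 complex, Vcp itself, the ATPase that extracts proteins for degradation, fell by 0.17 ± 0.04 (adjusted p = 0.00513). Its adaptor genes Ubxn4 and Faf1 rose by 0.24 ± 0.05 and 0.20 ± 0.05 (adjusted p = 0.00256 and 0.00756). Of 6 ubiquitin and E1 genes only Rps27a, a fusion of ubiquitin with a ribosomal protein, was called, at 0.12 ± 0.05 (adjusted p = 0.0402). It lost the call in 6 of the 13 alternatives, among them median centring (0.0585) and eBayes without trend (0.118).

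On the list for NRF1, the known driver of proteasome genes, 3 of 7 genes were called higher and 1 lower, against 21.5% and 18.9% of all genes tested. Ngly1, which removes sugars from NRF1, was at 9.40 in both HET libraries and at 9.11 and 9.12 in WT (0.29 ± 0.06, adjusted p = 0.00169). Ddi2, the protease that cuts NRF1 to its active form, averaged 10.22 in HET and 9.98 in WT (0.25 ± 0.06, adjusted p = 0.00240). Both genes were higher in both HET libraries. Nfe2l1 was at 13.38 and 13.34 in HET and 13.22 and 13.27 in WT (0.12 ± 0.04, adjusted p = 0.0483). That call did not hold after median centring (0.0732) or quantile normalization (0.0780), nor without replicate 1 of HET (0.0518) or of WT (0.0534). Nfe2l3, another relative, was at 8.91 and 9.09 in HET and 9.31 and 9.14 in WT (-0.23 ± 0.08, adjusted p = 0.0275), and lost its call without the block (0.136) and without replicate 1 of HET (0.0886) or of WT (0.0941). The other 3, Syvn1, Fbxw7 and Btrc, were not called.

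**Figure D4:**
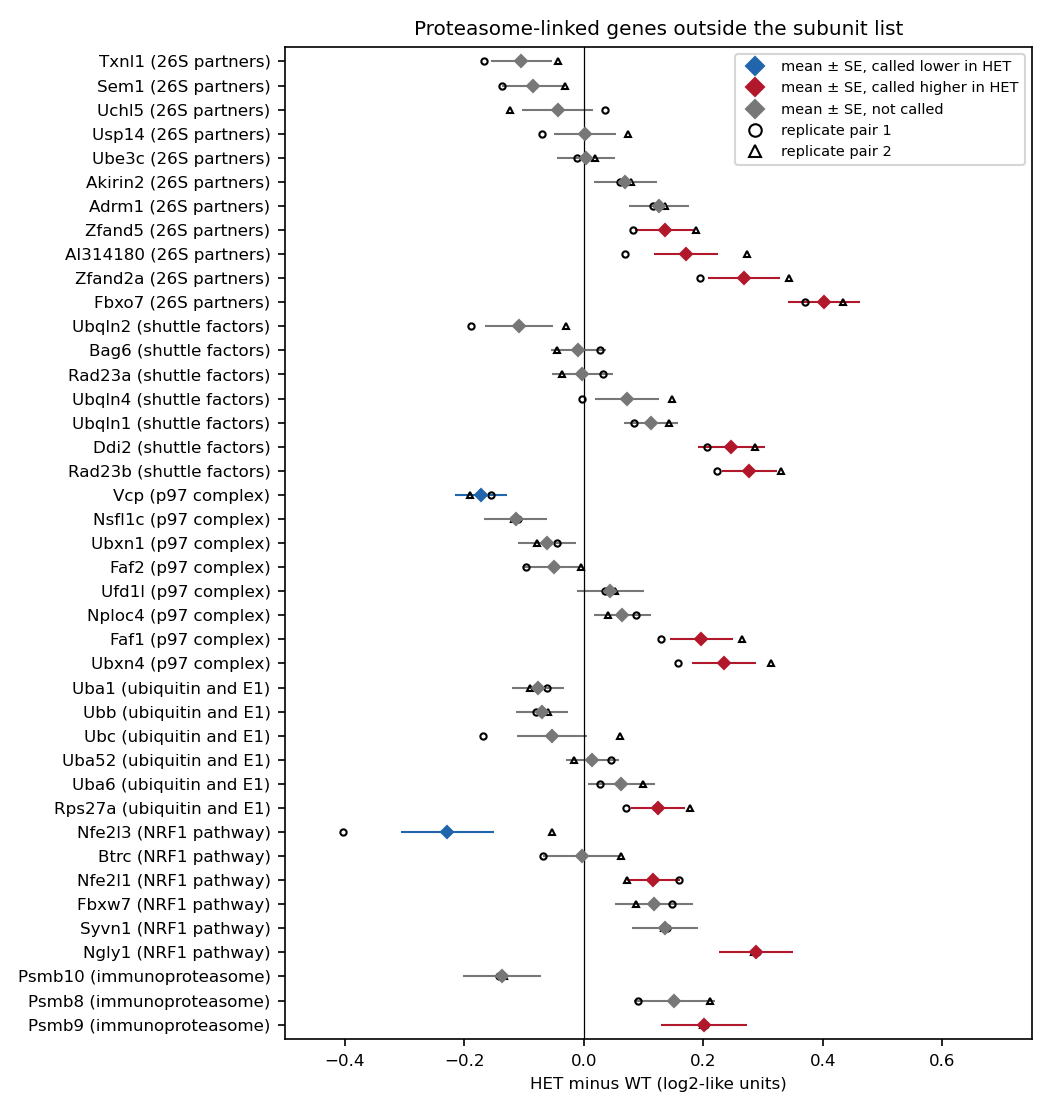
Difference HET minus WT (horizontal axis, log2-like units) for 38 proteasome-linked genes and the 3 immunoproteasome genes, by list. Diamonds show the mean with its SE, circles and triangles the 2 replicate pairs. Red marks, called higher in HET, outnumber blue ones by 12 to 2, with Fbxo7 at 0.40 the furthest right. Over all genes tested, 21.5% were called higher and 18.9% lower.

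The immunoproteasome subunits, which replace the catalytic beta subunits under interferon, did not share a direction. Psmb9, which takes the place of Psmb6, was at 8.28 in both HET libraries and 8.08 in both WT libraries (0.20 ± 0.07, adjusted p = 0.0347, but 0.0522 after median centring). Psmb8, which takes the place of Psmb5, was at 0.15 ± 0.07 (adjusted p = 0.0883). Psmb10, which takes the place of Psmb7, was at -0.14 ± 0.07 (adjusted p = 0.107). Whether any of these differs from its constitutive counterpart was not tested.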

How the data were processed

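Poly(A) RNA was isolated with TRIzol and made into 2 HET and 2 WT libraries with a New England Biolabs kit, per the labels' protocols. Among the tools in the submitters' processing notes are Salmon 0.11.3 and STAR 2.5.2b, with DESeq2, DESeq 1.22.2 and the build mm9, and no step is tied to any of them. The series' design text speaks of a human breast cancer line, and the sample labels were followed instead. The authors deposited a variance-stabilised value, on a log2-like scale, for each of 24444 genes, between 6.90 and 18.7, with a floor of 6.98 shared by 8120 genes in all libraries.

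Within each gene, the HET and WT values of replicate 1 and of replicate 2 have the same sum, to within 1.31e-13. The values had been centred on the replicate number, which pairs the libraries, and what a number shares was not given in the sources used here. limma 3.58.1 (R 4.3.3; lmFit, eBayes with trend, two-sided, Benjamini-Hochberg adjustment) was therefore fitted with genotype and a replicate block, which leaves 1 residual degree of freedom beside 14.6 prior ones. Tested genes lay at least 1 above the lowest value in at least 2 libraries (10857). The libraries are not said to be separate cultures or animals, so p-values measure the spread between these libraries, which may be technical.

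Normalised counts were obtained by inverting the variance stabilisation at its floor (total 13.5 to 13.9 M per library). They are approximate, because the values were centred first, and the true depth is unknown. Levels were not compared between genes. The script was tested on simulated data beforehand. With 200 genes changed there, 3.4% of changes of 0.1 and 44.8% of changes of 0.2 were called. Many more genes were called in the real data, so these shares need not carry over. A gene that was not called may still differ by such amounts. The members, lists and tests were chosen with earlier results of these data known. All called members, the catalytic subunits, Pomp, the activators and the inhibitor were named, with up to 4 called genes of each linked list. RefSeq gives Ecpas for AI314180, and Paaf1 is not analysed here. Alternatives are given in the closing section.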

Additional observations from a re-analysis of the deposited data

How the results depend on the processing

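Direction held for all 17 called members under all 13 alternatives, but most of these could not turn it. Fits without the block, with other filters or with other forms of eBayes return the main difference unchanged. In the called members the groups did not overlap, so leaving out 1 library could not turn the sign either. The direction therefore says little beyond the normalizations, under which it held. With no filter, limma called 0 of all genes (3942 at an unadjusted p under 0.05), so 0 members lower, 0 higher and 0 in each subunit group, with a median of -0.0856. That fit takes in 8120 genes with identical values in all libraries, and its prior degrees of freedom fell to 0.636. With only those genes left out (chosen after seeing the data), 3840 genes and 11 members lower were called, 3 of the core and 1 of the assembly and activator group, with a median of -0.0925. No replicate block called 6004 genes against 4388, 22 members lower against 16, 5 higher against 1, and 4 of the assembly and activator group lower and 3 higher. Dropping the pairing in this way ended the calls of Psmb6, AI314180 and Nfe2l3 among the genes named. Core genes called lower numbered 8 after quantile normalization, 8 after median centring and 3 with eBayes without trend, against 5, and the medians were -0.13 and -0.12 for the normalizations, -0.11 with the stricter filter and -0.12 on log2(normalised count + 1), against -0.10. Leaving out 1 library each (genotype alone, the lone library taken to vary like the others) gave medians from -0.104 to -0.0934. Because of the centring, leaving out the HET or the WT library of a pair gives the same difference. These fits have no replicate block either, and they call more genes than the main fit. Signs turned only in members that were not called: Psmd4 (-0.0199 and -0.00926), Psmd11 (-0.0205 and -0.00628) and Psme4 (-0.0320 and -0.0127) after quantile normalization and median centring. Without 1 library, Psmd4 ranged from -0.0190 to 0.0363, Psmd11 from -0.0190 to 0.0423, Psmc2 from -0.000349 to 0.0866 and Psmd5 from -0.0354 to 0.0248, none called. Besides Psmb6, calls were lost in Psmb1, Psmd12 and Psmd2 without trend and in Psmb1, Psmc4, Psmd12 and Psme2 among genes with any spread; the cause was not tested.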
